A study of Mus musculus with 9 samples.

Results

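The genes described here are 9 genes of blood vessel endothelium, Pecam1, Kdr, Flt1, Tek, Tie1, Cldn5, Eng, Emcn and Sox17, in RNA from dorsal root ganglia (DRG) of mouse embryos. They were taken by symbol from a table of 55247 genes, and all 9 were among the 13200 genes that reached 100 counts in 1 library or more and were tested. DRGs were dissected shortly before birth (E18.5) from 3 genotypes, with 3 libraries each. In WT embryos both Isl1 and Meis2 were unmodified. Isl1Cre/+ embryos had Cre recombinase in 1 of their copies of Isl1, an allele the study used to reach postmitotic sensory neurons. Isl1Cre/+::Meis2LoxP/LoxP embryos, named mutant here, had that same Isl1 allele and, on both copies of Meis2, an exon 8 flanked by LoxP sites, so that the Cre allele was shared by the mutant and by 1 of its controls. Whether a library came from 1 embryo or from several is not stated in the labels, and p-values therefore measure the spread between these libraries, which may in part be technical.

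Endothelial cells line every blood vessel and meet each other at junctions, where Pecam1 (CD31) serves in adhesion and Cldn5 seals the tight junction. Their growth is driven by vascular endothelial growth factor (VEGF), which signals through Kdr (VEGFR2), whereas Flt1 (VEGFR1) binds VEGF tightly but signals weakly and is often described as a decoy. Tek (Tie2) is the receptor of the angiopoietins and Tie1 its partner without a firmly assigned ligand. Eng is a co-receptor for ligands of the TGF-beta and BMP family, Emcn a mucin-like surface protein of capillaries and veins, and Sox17 a transcription factor of arterial endothelium. The ganglion has a dense capillary bed whose vessels are known to be more permeable than those of the brain.

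Libraries held between 23854607 and 29103444 counts, which are reads after removal of duplicates by their molecular identifiers. Counts were scaled to a common library size (cpm) with the TMM factors of edgeR. Meis2 had 103 ± 7.24 cpm (SD, n = 3) in WT, 95.7 ± 6.31 cpm (SD, n = 3) in Isl1Cre/+ and 40.9 ± 0.256 cpm (SD, n = 3) in mutant libraries, which bore out the mutant label. Isl1 had 262 ± 30.4 cpm (SD, n = 3) in WT, 186 ± 19.1 cpm (SD, n = 3) in Isl1Cre/+ and 188 ± 24.7 cpm (SD, n = 3) in mutant libraries. Every library labelled with the Cre allele was below every WT library in Isl1. The 9 members together made up 0.0182% to 0.0375% of a library's counts. In RNA of whole ganglia, fewer endothelial cells and less RNA per endothelial cell cannot be told apart.

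For 7 of the 9 members, RefSeq sequence upstream of the transcription start was at hand (build GRCm38.p6), with Pecam1 and Sox17 unmatched. Kdr and Flt1 are shown because they gave larger differences between Isl1Cre/+ and WT than the other members, and Cldn5 because it varied least like the others. Each line gives the 250 bases before the start, 5′ to 3′ on the strand of the gene. Capitals mark GGAA, the core of sites bound by ETS factors such as Erg, Fli1 and Ets1, read on either strand and so written GGAA or TTCC. Kdr lies on chromosome 5 (chr5:75978456-75978705, reverse strand), Flt1 on the same chromosome (chr5:147726012-147726261, reverse strand) and Cldn5 on chromosome 16 (chr16:18776597-18776846, forward strand).
Kdr: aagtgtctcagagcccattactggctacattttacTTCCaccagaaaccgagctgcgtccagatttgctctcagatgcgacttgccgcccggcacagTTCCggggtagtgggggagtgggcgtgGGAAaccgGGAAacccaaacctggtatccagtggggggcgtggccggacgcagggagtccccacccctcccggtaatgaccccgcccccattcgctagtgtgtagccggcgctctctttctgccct
Flt1: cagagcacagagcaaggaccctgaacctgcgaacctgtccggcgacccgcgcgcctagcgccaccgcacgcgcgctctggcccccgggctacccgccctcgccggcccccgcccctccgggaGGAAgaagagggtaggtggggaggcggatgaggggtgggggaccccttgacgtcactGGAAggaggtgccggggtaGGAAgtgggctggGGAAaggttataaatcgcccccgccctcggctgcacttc
Cldn5: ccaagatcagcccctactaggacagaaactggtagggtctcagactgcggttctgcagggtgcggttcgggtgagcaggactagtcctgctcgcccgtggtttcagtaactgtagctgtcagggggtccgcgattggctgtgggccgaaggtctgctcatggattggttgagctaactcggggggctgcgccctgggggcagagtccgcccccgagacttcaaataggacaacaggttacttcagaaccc

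The Kdr window held 4 matches to GGAA, between 215 and 118 bases before the start, and the Flt1 window held 4, between 128 and 39 bases before the start. Tie1 held 7, Emcn 4, Eng 3 and Tek 2, whereas Cldn5 held 0. The Tie1 window (118489850 to 118490099, reverse strand) starts from the RefSeq start. Most of it lies within Tie1 as placed by the gene model used for exonic length, which ends at 118490061. So short a motif is common, as 93.5% of all 32851 promoter windows of this length had at least 1 match, with a median of 3 against 4 for the members. A longer form, CAGGAAG on either strand, which contains the core, was found in 1 of the 7 members, Emcn, and in 10.8% of all windows. The GATA motif AGATAA was found in 0 of the 7 members and in 9.99% of all windows. TATAAA was found in Flt1 only, and in 12.4% of all windows. These matches describe the letters in a window and are not sites shown to be bound.

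Per exonic length, the members covered a wide range of levels in WT ganglia. Pecam1 was the highest at 9.85 ± 1.61 cpm per kb (SD, n = 3), followed by Eng at 8.34 ± 1.46 cpm per kb (SD, n = 3) and Kdr at 5.68 ± 1.40 cpm per kb (SD, n = 3). Emcn had 4.96 ± 1.01 cpm per kb (SD, n = 3), Tek 3.58 ± 0.340 cpm per kb (SD, n = 3), Cldn5 3.52 ± 0.394 cpm per kb (SD, n = 3) and Tie1 3.36 ± 0.440 cpm per kb (SD, n = 3). Flt1, with 732 to 1626 counts per library, stood at 2.35 ± 0.285 cpm per kb (SD, n = 3), since its exons cover 13504 bases. Sox17 was lowest at 0.616 ± 0.112 cpm per kb (SD, n = 3).

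The order was largely kept in all 9 libraries. Pecam1 lay above Eng, Eng above Kdr, Kdr above Emcn and Emcn above Tek in 9 of 9 libraries each, even though the WT ranges of Pecam1 and Eng and of Kdr and Emcn overlapped. Tek, Cldn5 and Tie1 could not be ordered, as their WT ranges overlapped and Cldn5 was above Tie1 in 4 of 9 libraries. Tie1 was above Flt1 in 8 of 9 libraries, and Flt1 above Sox17 in 9 of 9. Against a median of 6.59 cpm per kb over the tested genes in WT, only Pecam1 and Eng had means above it, at the 62.3 and 57.4 percentile, and Sox17 stood at the 2.13 percentile.

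**Figure D1:**
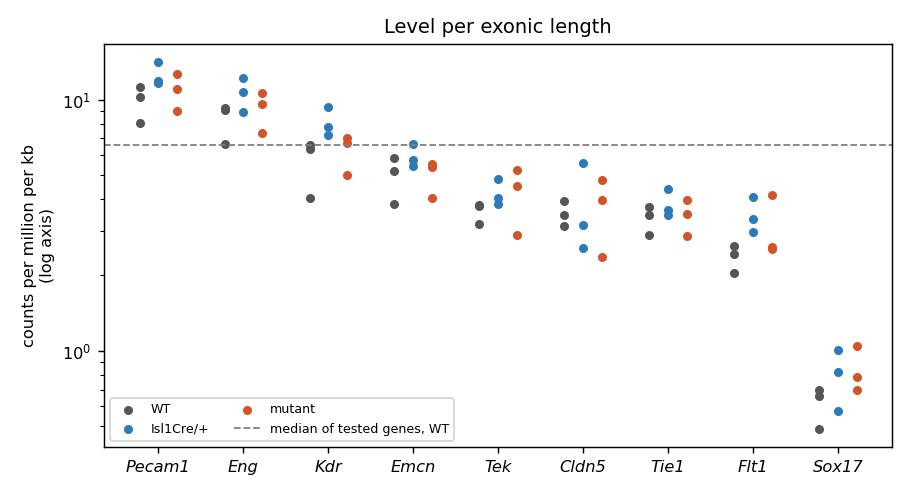
Level of each endothelial gene per kb of exon (cpm per kb, log axis) in each of 9 libraries, coloured by genotype, with the median of all tested genes in WT as a dashed line. Pecam1 and Eng lie at or above the line of 6.59 cpm per kb in all 3 genotypes, and Sox17 at 1.04 or below.

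On GRCm38, the assembly also called mm10, Pecam1 lies on chromosome 11 (106654217 to 106750628, reverse strand) and Eng on chromosome 2 (32646595 to 32682669, forward strand). Kdr (75932827 to 75978458) and Flt1 (147561604 to 147726011) are both on the reverse strand of chromosome 5. Tek (94739289 to 94874976, forward strand) and Tie1 (118471191 to 118490061, reverse strand) are both on chromosome 4. Emcn is on chromosome 3 (137341067 to 137432185, forward strand), Cldn5 on chromosome 16 (18776847 to 18778262, forward strand) and Sox17 on chromosome 1 (4490931 to 4497354, reverse strand). Cldn5 is a gene of 1 exon, and Flt1 has the longest span of the members at 164408 bases.
Of the exonic bases of Sox17, 16.8% lie opposite exons of Gm37587, and of those of Eng 1.51% lie opposite Fpgs. The strand option used in counting is not given in the sources used here, and reads from both strands of these stretches cannot be told apart. Gm37587 itself had 0 or 1 counts per library and Fpgs 251 to 353. Counts per gene also do not separate the soluble from the membrane form of Flt1.

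The members varied together from library to library, also within a genotype. To show this, log2 cpm of each gene was set against its own mean over the 9 libraries. In WT library 1, 1 of 9 members, Cldn5, lay above its own mean, and the mean deviation of the 9 was -0.38 on the log2 scale. In mutant library 1 it was again 1 of 9, here Sox17, with a mean deviation of -0.30. Isl1Cre/+ library 1 had 9 of 9 above and a mean deviation of 0.38, and mutant library 2 had 8 of 9 above and a mean of 0.26. In the other five libraries the mean deviation stayed between -0.05 and 0.09. By genotype it ran from -0.38 to -0.04 in WT, from -0.01 to 0.38 in Isl1Cre/+ and from -0.30 to 0.26 in mutant libraries. In this mean every Isl1Cre/+ library thus lay above every WT library, whereas the mutant libraries overlapped both.

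This common shift accounted for 65.3% of the members' variance within WT, 57.6% within Isl1Cre/+ and 72.3% within the mutant. The 3 libraries of a genotype spanned 0.35 (WT), 0.39 (Isl1Cre/+) and 0.55 (mutant) on the log2 scale in this mean. Counting error was not the limit for most members, as the variance within a genotype was 1.71 to 96.8 times that of counting error. The lowest of these values belonged to Cldn5 in WT, with 148, 126 and 142 counts. Cldn5 and Sox17, with 89 to 232 and 62 to 136 counts, had the shallowest data. Over the 9 libraries their Pearson correlations with the mean of the other eight members were 0.47 and 0.55, against 0.84 to 0.97 for the rest, a description over libraries that the genes share. Sox17 was highest in Isl1Cre/+ library 3 and mutant library 2, and Cldn5 fell below its own mean in Isl1Cre/+ library 3.

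**Figure D2:**
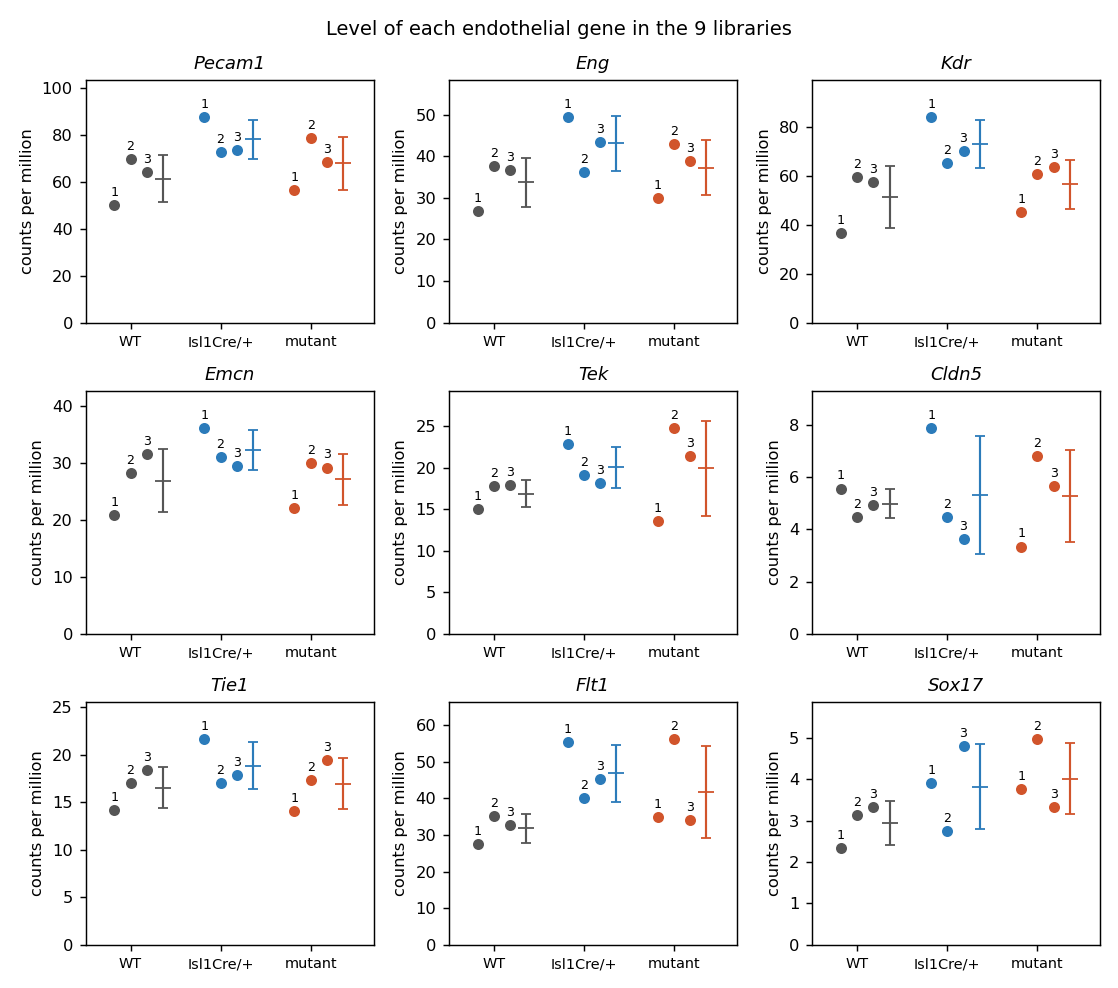
Level of each endothelial gene in cpm, each point being a library with its replicate number, and bars giving mean ± SD (n = 3) per genotype. WT library 1 and mutant library 1 are low, and Isl1Cre/+ library 1 and mutant library 2 high, in most panels.

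Between Isl1Cre/+ and WT, which asks what the Cre allele alone brings, 3 members rose by the criterion of the study, which asks for a 1.2-fold change and an unadjusted p under 0.05. These were Flt1, Kdr and Pecam1, that is both VEGF receptors of the set and the junctional adhesion molecule. They are 3 of 9 members called in either direction and all 3 are higher, where 1.4% of all genes tested were called in either direction and 0.258% were called higher. The 9 log2 fold changes were all above 0 with TMM, with the size factors of DESeq2 and with library size alone. Their median was 0.35, against -0.0016 for all genes tested, of which 49.3% were above 0. No member passed an adjusted p of 0.05, nor did any gene in this edgeR fit (0 of 13200, 0%), although 236 genes had an unadjusted p under 0.05. By their adjusted p, 1 gene was called with the Wald test of DESeq2, 1 with limma voom and sample quality weights, 5 in edgeR without WT library 3 and 4 in edgeR without a filter on low counts.

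Flt1 had 732, 992 and 940 counts in WT and 1626, 1118 and 1281 in Isl1Cre/+ libraries, or 27.6, 35.1 and 32.7 cpm against 55.4, 40.0 and 45.2 cpm. Every Isl1Cre/+ library lay above every WT library. The log2 fold change was 0.57 (SE 0.148, unadjusted p = 0.00591, adjusted p = 0.9999 by the quasi-likelihood test of edgeR and the Benjamini-Hochberg method), which is 1.48-fold. The call was kept under all 16 alternatives, with log2 fold changes between 0.33 and 0.67. The lowest of them, 0.33, was obtained without WT library 1 and Isl1Cre/+ library 1, a choice made after seeing the data.

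Kdr had 977, 1684 and 1655 counts in WT and 2470, 1820 and 1988 in Isl1Cre/+ libraries, or 36.8, 59.6 and 57.5 cpm against 84.1, 65.1 and 70.1 cpm. Again the libraries did not overlap, although WT library 1 and Isl1Cre/+ library 1 were far from the others of their genotype. The log2 fold change was 0.52 (SE 0.198, unadjusted p = 0.0334, adjusted p = 0.9999 from the edgeR test). Kdr was called in 13 of 16 alternatives. The log2 fold change was 0.31 without WT library 1, still called. It was 0.41 without Isl1Cre/+ library 1 and 0.54 without Isl1Cre/+ library 3, and with either left out the call was lost (unadjusted p = 0.114 and 0.0609 from the edgeR test). Without WT library 1 and Isl1Cre/+ library 1 it was 0.20, under the required fold (unadjusted p = 0.0191 from the edgeR test). Over all genes tested, WT library 1 also stood apart from WT libraries 2 and 3, with a chi-square per gene against counting error of 108 and 129. This value was 13.8 between WT libraries 2 and 3, and 12.6 to 20.5 among the Isl1Cre/+ libraries.

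Pecam1 had 1335, 1972 and 1841 counts in WT and 2576, 2037 and 2085 in Isl1Cre/+ libraries, or 50.3, 69.8 and 64.0 cpm against 87.7, 72.8 and 73.6 cpm. These libraries did not overlap either, but the gap between WT library 2 and Isl1Cre/+ library 2 was small. The log2 fold change was 0.35 (SE 0.143, unadjusted p = 0.0405, adjusted p = 0.9999 from the edgeR test). The call was kept in 7 of 16 alternatives and was lost when any one of the 3 Isl1Cre/+ libraries, WT library 1 or WT library 3 was left out, at log2 fold changes between 0.21 and 0.40.

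The angiopoietin receptor Tek was the fourth member whose libraries did not overlap, with 15.0, 17.7 and 17.9 cpm in WT and 22.8, 19.1 and 18.1 cpm in Isl1Cre/+. Its log2 fold change of 0.26 (SE 0.123) did not pass the test (unadjusted p = 0.0753 from edgeR). Thus 4 of 9 members had every Isl1Cre/+ library above every WT library, where 2.95% of all genes tested did. The remaining members overlapped, with log2 fold changes of 0.39 for Sox17 (SE 0.259), 0.36 for Eng (SE 0.169), 0.27 for Emcn (SE 0.167), 0.20 for Tie1 (SE 0.140) and 0.11 for Cldn5 (SE 0.282). Eng was called in 2 of 16 alternatives (without a filter on low counts and without Isl1Cre/+ library 2) and Emcn in 1 (without WT library 3). With WT library 1 alone left out, Eng was at 0.20, Emcn at 0.09, Sox17 at 0.23, Tek at 0.16 and Tie1 at 0.08. Without WT library 1 and Isl1Cre/+ library 1, the median of the members was 0.10 in place of 0.35, 1 member was called in place of 3, and Tie1 and Cldn5 were at -0.03 and -0.22. Of all 13200 genes tested, 304 were then called in place of 185.

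Between mutant and Isl1Cre/+, which share the Cre allele and differ in Meis2, 1 member fell, Kdr, where 1.67% of all genes tested were called in either direction and 0.265% were called lower. Kdr had 1200, 1598 and 1550 counts in mutant libraries, or 45.1, 60.7 and 63.6 cpm, all below the lowest Isl1Cre/+ library at 65.1 cpm, and mutant library 3 was close to it. The log2 fold change was -0.37 (SE 0.147, unadjusted p = 0.0376, adjusted p = 0.9997 from edgeR), or 0.773-fold. Kdr was the only member whose libraries did not overlap (1 of 9), which was so in the lower direction for 4.2% of all genes tested. No member passed an adjusted p of 0.05 in edgeR, where 1 gene of all tested did (0.00758%) and 360 genes had an unadjusted p under 0.05. In this comparison the call of Kdr was kept in 9 of 15 alternatives and lost in 6. These included leaving out Isl1Cre/+ library 1, Isl1Cre/+ library 3 or mutant library 1, at -0.26, -0.40 and -0.24. They also included the fit of all 3 genotypes together (-0.37, unadjusted p = 0.0873 from edgeR) and limma voom with sample quality weights (-0.26, unadjusted p = 0.0772).

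The other eight members did not pass the test. Their log2 fold changes were -0.25 for Emcn (SE 0.134), -0.21 for Eng (SE 0.157), -0.20 for Pecam1 (SE 0.130), -0.17 for Flt1 (SE 0.210) and -0.15 for Tie1 (SE 0.144). Tek at -0.0077 (SE 0.210), Cldn5 at -0.02 (SE 0.351) and Sox17 at 0.07 (SE 0.252) were within their standard errors. The median of the 9 was -0.17, against 0.00029 for all genes tested. Single mutant libraries moved these values. Without mutant library 1, 0 members were called, where 407 of all 13200 genes tested were. Kdr was then at -0.24, Flt1 at -0.054 and the median of the 9 at -0.05. Mutant library 2, with 56.2 cpm of Flt1 and 24.8 cpm of Tek, was above every Isl1Cre/+ library in these genes. Without it 4 members were called lower, Kdr at -0.42, Flt1 at -0.43, Emcn at -0.33 and Pecam1 at -0.32. In that fit 217 of all 13200 genes tested were called in either direction.

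Between mutant and WT, which differ in both alleles, 0 of 9 members were called, where 0.318% of all genes tested were. In edgeR 0 members had an unadjusted p under 0.05, against 49 genes of all tested, and 1 gene (0.00758%) passed an adjusted p of 0.05. By the Wald test of DESeq2 and by limma voom, 0 members met the criterion, against 37 and 40 of all 13200 genes tested. Flt1 met it in edgeR without a filter on low counts (0.41, unadjusted p = 0.0304) and Tek without mutant library 1 (0.45, unadjusted p = 0.0148 from edgeR). The libraries of every member overlapped between these genotypes (0 of 9 separated, against 2.76% of all genes tested, both in either direction). Log2 fold changes lay between 0.0096 for Emcn (SE 0.182) and 0.45 for Sox17 (SE 0.239), all above 0 with TMM, with DESeq2's size factors and with library size alone, and their median was 0.14 against -0.0094 for all genes.

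Flt1 was next to Sox17 with 0.39 (SE 0.205, unadjusted p = 0.0945 from edgeR). Its mutant libraries were at 34.9, 56.2 and 34.2 cpm against 27.6, 35.1 and 32.7 cpm in WT, so that mutant library 2 alone was clearly above. Sox17, with unadjusted p = 0.0992 from edgeR, had 3.76, 4.98 and 3.32 cpm in mutant and 2.33, 3.15 and 3.34 cpm in WT libraries, which overlapped by a narrow margin. Without mutant library 1, Tek was called at 0.45. Each of these comparisons shares libraries with the other two, so that a low WT library 1 or a high Isl1Cre/+ library 1 enters more than 1 of them. The smallest two-sided p that 3 libraries against 3 allow in an exact permutation test is 0.1, and the p-values rest on the variance edgeR estimates across genes.

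**Figure D3:**
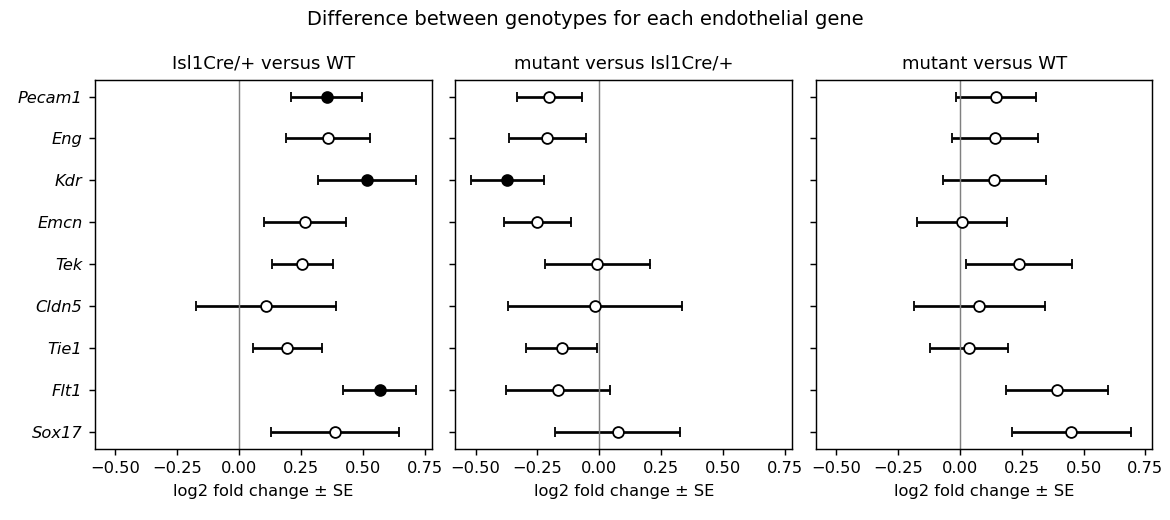
Log2 fold change of each endothelial gene with its standard error (edgeR, 3 libraries against 3) in the 3 comparisons, filled points being genes called by the criterion of the study. All 9 points lie right of 0 for Isl1Cre/+ versus WT, where Pecam1, Kdr and Flt1 are filled, and only Kdr is filled for mutant versus Isl1Cre/+.

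Ratios of 2 members in the same library need no scaling. The counts of Flt1 divided by those of Kdr gave 0.749, 0.589 and 0.568 in WT libraries, 0.658, 0.614 and 0.644 in those of Isl1Cre/+, and 0.773, 0.925 and 0.537 in those of the mutant. The balance of these VEGF receptors thus overlapped in all comparisons, with the tightest values in Isl1Cre/+ and both the highest and the lowest in the mutant. The ratio of Tek to Tie1 was 1.06, 1.04 and 0.972 in WT libraries, 1.06, 1.12 and 1.02 in those of Isl1Cre/+, and 0.965, 1.43 and 1.097 in those of the mutant. Here too the genotypes overlapped, and mutant library 2 was the one apart.

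Beyond the members, 30 further genes of endothelium were listed, of which 29 were tested and Tal1 was too low (25 to 51 counts). Between Isl1Cre/+ and WT, 27 of the 29 had log2 fold changes above 0, with a median of 0.21, but 0 were called. Cdh5 (VE-cadherin), the defining adherens junction protein of endothelium, was by far the highest of them at 31.9 cpm per kb over all libraries. Its log2 fold change between Isl1Cre/+ and WT was 0.10 (SE 0.170), below the values of all 9 members, of which Cldn5 at 0.11 was nearest. Plvap, a protein of the diaphragms of fenestrated capillaries, followed at 16.5 cpm per kb, with 0.22 (SE 0.120).

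Between mutant and Isl1Cre/+, 22 of the 29 were below 0 with a median of -0.10, and 2 were called lower. Cyyr1, a small membrane protein gene, fell with a log2 fold change of -0.77 (SE 0.189, unadjusted p = 0.00428, adjusted p = 0.9997 from edgeR) and was called in 14 of 14 alternatives. Ets1, an ETS factor that lymphocytes also express, fell by 0.26 on the log2 scale (SE 0.105, unadjusted p = 0.0386, adjusted p = 0.9997 from edgeR) and was called in 6 of 15. Between mutant and WT, 20 of the 29 were above 0, with a median of 0.07 and 0 called.

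Of 20 ligands, receptors and regulators of the VEGF, angiopoietin, Notch and BMP pathways, 18 were tested and 0 were called in any comparison, with medians of 0.11 for Isl1Cre/+ and 0.08 for mutant relative to WT and -0.04 for mutant relative to Isl1Cre/+. Vegfc and Vegfd were too low to be tested. Vegfb, a ligand of Flt1, was the highest of the list at 37.0 cpm per kb, and its log2 fold change between Isl1Cre/+ and WT was -0.09 (SE 0.126). Nrp1, a co-receptor for VEGF that axons also carry for semaphorins, stood at 21.3 cpm per kb with 0.04 (SE 0.0782). Vegfa, the main ligand of Kdr, was named after its values were seen, and had 17.7 cpm per kb and 0.18 (SE 0.126).

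Genes of arterial endothelium gave 0 calls among 8 tested of 9, with medians of 0.19 for Isl1Cre/+ and 0.06 for mutant relative to WT. Efnb2 and Hey1, the highest of them and not restricted to arteries, were at -0.09 (SE 0.117) and -0.01 (SE 0.0855) between Isl1Cre/+ and WT. Genes of venous and capillary endothelium also gave 0 calls, with 7 tested of 8 and medians of 0.09 and -0.02 in these comparisons. The highest were Rgcc with 0.0023 (SE 0.0995) and Ackr1, a chemokine-binding protein of venules, with 0.22 (SE 0.127). Of 12 genes of the blood-brain and blood-nerve barrier, 9 were tested and 0 called, with a median of 0.01 between Isl1Cre/+ and WT. The tight junction scaffold Tjp1 had -0.03 (SE 0.112) and the glucose transporter Slc2a1 0.41 (SE 0.2001), and Reck had an unadjusted p of 0.0363 in edgeR but a fold change under 1.2. Some of these genes stand in more than 1 list.

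Of 7 genes of lymphatic endothelium, 4 were tested. Prox1, its defining transcription factor, had 27 to 58 counts and Ccl21a 0 to 2 counts, both under the limit for testing, as was Mmrn1. Flt4 (VEGFR3), which is also in the pathway list, had 114 to 234 counts and Reln 563 to 1128 counts, and neither was called. Lyve1 fell between Isl1Cre/+ and WT (log2 fold change -0.55, SE 0.144, unadjusted p = 0.00567, adjusted p = 0.9999 from edgeR), and was called in 15 of 16 alternatives. Lyve1 is also a gene of tissue macrophages. Pdpn, which Schwann cells and fibroblasts express too, was the highest of the list per length and had -0.21 (SE 0.224).

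Mural cells, the pericytes and smooth muscle cells that wrap vessels, were represented by 11 tested genes of 12. Between Isl1Cre/+ and WT, Notch3, a receptor of pericytes and smooth muscle, rose with a log2 fold change of 0.37 (SE 0.0778, unadjusted p = 0.00176, adjusted p = 0.9999 from edgeR) and was called in 16 of 16 alternatives. Des, which skeletal muscle expresses as well, fell with -1.71 (SE 0.655, unadjusted p = 0.0334 from edgeR) and was called in 8 of 16 alternatives. Its call was lost without Isl1Cre/+ library 1 or 3, and without WT library 3, where the log2 fold change was -0.83. The pericyte genes Rgs5 and Vtn, the highest of the list per length, were at 0.40 (SE 0.208) and -0.35 (SE 0.386). Between mutant and Isl1Cre/+, the contractile genes Myh11 (0.92, SE 0.204), Acta2 (1.105, SE 0.382) and Tagln (0.88, SE 0.307) rose together with Des (2.52, SE 0.830), each called by the criterion with adjusted p = 0.9997 in edgeR, whereas Rgs5 was at -0.26 (SE 0.117). Myh11 was called in 15 of 15 alternatives, Acta2 and Tagln in 13 and Des in 11. Without mutant library 2, Acta2 was at 0.56, Tagln at 0.46 and Des at 1.24, each still called. Without Isl1Cre/+ library 3 the calls of Acta2, Tagln and Des were lost, as were those of Acta2 and Tagln without Isl1Cre/+ library 2 and that of Des without Isl1Cre/+ library 1. The medians of the list were 0.04 between Isl1Cre/+ and WT and 0.0097 between mutant and Isl1Cre/+.

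The other cell types of a dissected ganglion moved between libraries as well. Red blood cell genes ran opposite to the endothelial members between Isl1Cre/+ and WT, since 7 of 7 tested, haemoglobin chains among them, were called lower with a median log2 fold change of -1.34. Their summed level was 899 to 2143 cpm in WT, 345 to 985 cpm in Isl1Cre/+ and 1213 to 3981 cpm in mutant libraries. Of their other markers, Gata1 had 0 to 4 counts. Skeletal muscle genes were called lower likewise, 9 of 9 with a median of -2.10, and summed to 141 to 1052 cpm in WT, 72.6 to 193 cpm in Isl1Cre/+ and 163 to 2478 cpm in mutant libraries. Between mutant and Isl1Cre/+ both lists were called higher in all their tested genes, with medians of 2.06 and 2.98, where 8 of 9 endothelial members were below 0. Their part in the endothelial differences was not tested.

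Other lists gave smaller shifts. Of 11 tested macrophage genes, 0 were called, and their median was -0.27 between Isl1Cre/+ and WT and 0.39 between mutant and Isl1Cre/+. Fibroblast genes (9 tested) had medians of 0.06 and 0.09, and Schwann and satellite glia genes (12 tested) of 0.10 and -0.07, with 0 called in each. Genes of dividing cells (8 tested) had medians of -0.00066 and 0.0074, but varied between libraries, with 8 of 8 above their own mean in Isl1Cre/+ library 1 (mean deviation 0.30), mutant library 2 (0.27) and WT library 3 (0.19) and 0 of 8 in mutant library 1 (-0.32), Isl1Cre/+ library 3 (-0.25), WT library 2 (-0.14) and Isl1Cre/+ library 2 (-0.0996). Mutant library 2, in which 8 of 9 endothelial members were above their own mean, also had 11 of 11 mural, 9 of 9 fibroblast, 11 of 11 macrophage, 7 of 7 erythroid and 9 of 9 skeletal muscle genes above theirs. Isl1Cre/+ library 1, with 9 of 9 members above, had 9 of 9 fibroblast and 11 of 12 glial genes above, but 0 of 7 erythroid and 0 of 9 muscle genes.

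Sensory neuron genes were high in the libraries lowest in endothelial members by mean deviation, WT 1 and mutant 1. Of 12 tested, 10 were above their own mean in WT library 1 and 11 in mutant library 1, with mean deviations of 0.26 and 0.14, against -0.22 and 1 of 12 in mutant library 2. In Isl1Cre/+ library 1, the highest in the mean deviation of the endothelial members, 7 of 12 were above and the mean deviation was -0.04. The share of counts from the mitochondrial genome was also highest in WT library 1 (8.58%) and mutant library 1 (7.19%), and 3.04% to 5.37% in the other libraries. Among these 12 genes Isl1 was called lower relative to WT in Isl1Cre/+ (log2 fold change -0.48, SE 0.126) and in the mutant (-0.48, SE 0.132), and no other was called. Whether the cell composition of the dissected tissue sets the endothelial levels was not tested.

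**Figure D4:**
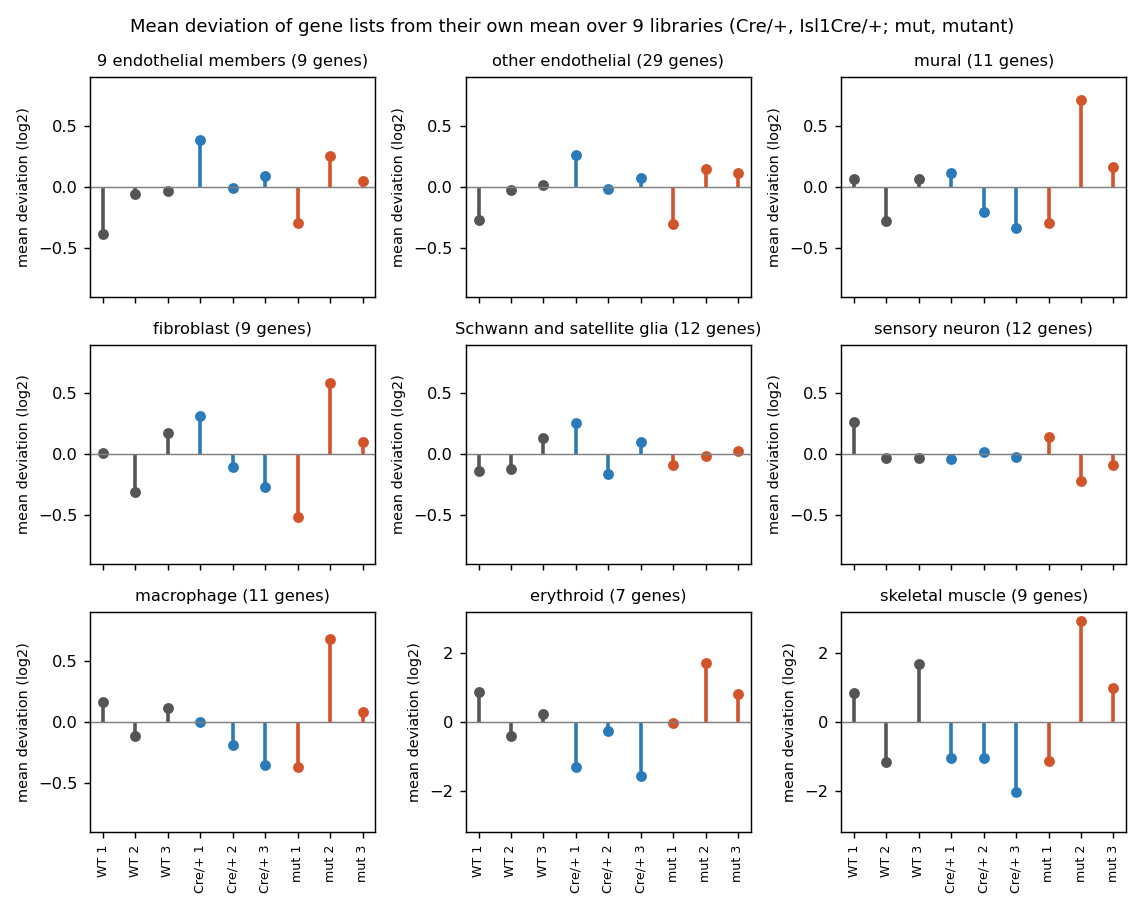
Mean deviation (log2) of each gene list from its own mean over the 9 libraries, 1 point per library coloured by genotype, with a wider axis for erythroid and skeletal muscle genes. In this mean, the 9 endothelial members and 29 other endothelial genes share their low libraries (WT 1, mutant 1) and their high ones (Isl1Cre/+ 1, mutant 2). Of the 29, 17 were above their own mean in mutant 2 and 25 in mutant 3. Erythroid and muscle genes are below 0 in all Isl1Cre/+ libraries.

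Across the 10401 other tested genes with a mean of at least 10 cpm, those most like the mean deviation of the members over the 9 libraries were sought by Pearson correlation. The 10 nearest had r between 0.94 and 0.98. They hold the endothelial receptor Adgrf5 (r = 0.98), the endothelial phosphatase Ptprb (r = 0.95), which acts on Tek and was in the pathway list, and Igfbp7 (r = 0.96), a secreted protein abundant in vessels. The others were Rwdd4a (r = 0.97), Cyfip1 (r = 0.96), Map3k1 (r = 0.96), Adgre5 (r = 0.96), Sf3b3 (r = 0.96), Rprd1b (r = 0.95) and Litaf (r = 0.94), which many cell types express. Without WT library 1 and Isl1Cre/+ library 1, the libraries farthest from the median, r was still between 0.90 and 0.97 for the 10. These genes were chosen for their r among many and share the libraries and their depth with the members, so no p is given. Adgrf5 had log2 fold changes of 0.35 between Isl1Cre/+ and WT and -0.17 between mutant and Isl1Cre/+, and 0 of the 10 were called in any comparison.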

How the data were processed

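DRGs of E18.5 embryos of 3 genotypes gave 9 libraries. Per the labels and the methods of the study, the authors selected poly(A) RNA, tagged molecules with identifiers, aligned single-end reads to mm10 with STAR 2.7.10, removed duplicates with UMI-tools and counted uniquely mapped reads with HTSeq 0.6. The deposited values used here are these raw counts, 1 per gene and library. The annotation and strand option are not given in the sources used here. Columns that hold the authors' limma fold changes, p-values and statistics were not used. Depth was 23854607 to 29103444 counts.

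Groups were taken from the labels. Gene identifiers were matched to GENCODE M21 (55154 of 55247), and 15 symbols changed into dates were restored. Genes that reached 100 counts in 1 library or more were tested, each pair of genotypes alone, by the two-sided quasi-likelihood method of edgeR 4.0.16 (R 4.3.3) after TMM scaling, with p-values adjusted by Benjamini-Hochberg. Called genes differed 1.2-fold or more at an unadjusted p under 0.05. Deviations used log2 of cpm plus 0.5. Levels per length divided cpm by exonic kb. The procedure was tested on simulated data.

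Members and lists were chosen with earlier results of these data known. Named genes were the members, list genes called in any comparison, the 2 highest of each vascular list per length, the 10 genes most like the members, and Meis2 and Isl1. Vegfa, Reck, Gata1 and list genes too low for testing were named after their values were seen. Alternatives were other scalings and filters, DESeq2 1.42.0, limma voom 3.58.1 with and without sample quality weights, 3 genotypes in 1 fit, a replicate block, each library left out and, for the count of called members, no fold requirement. Leaving out WT library 1 and Isl1Cre/+ library 1 together was added after seeing the data.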

Additional observations from a re-analysis of the deposited data

How the results depend on the processing

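Leaving out 1 library at a time gave 1 to 3 called members between Isl1Cre/+ and WT, 0 to 4 between mutant and Isl1Cre/+ and 0 to 1 between mutant and WT. Of all 13200 genes tested, these fits called 102 to 340, 167 to 407 and 40 to 132. Medians of the members then lay between 0.20 and 0.45, between -0.32 and -0.04, and between 0.02 and 0.28. Without a filter on low counts, 2 members were called between mutant and Isl1Cre/+ and 1 between mutant and WT, against 1028 and 408 of the 33884 genes then tested. With limma voom and sample quality weights, or with 3 genotypes in 1 edgeR fit, 0 members were called between mutant and Isl1Cre/+, against 227 and 191 of 13200 genes tested. The weights brought the median of the members between Isl1Cre/+ and WT to 0.14. Without WT library 1 and Isl1Cre/+ library 1, an alternative chosen after seeing the data, 1 member was called, against 304 of 13200 genes tested, and this median was 0.10.

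The replicate numbers were not taken as pairs, since the labels tie them to no litter or batch and deviations of same-numbered libraries correlated above 0.1 in only 4 of 9 pairs (-0.57 to 0.39). For 3 of 9 libraries the best match had the same number. With a replicate block, 2 members were called between Isl1Cre/+ and WT, 0 between mutant and Isl1Cre/+ (Kdr, unadjusted p = 0.0729 from edgeR) and 1 (Flt1) between mutant and WT. Of all 13200 genes tested, the blocked fits called 236, 177 and 31, and 4 passed an adjusted p of 0.05 between Isl1Cre/+ and WT.

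Members near 0 changed sign. With 1 library left out, Cldn5 ranged from -0.28 to 0.32 (Isl1Cre/+ versus WT), from -0.24 to 0.38 (mutant versus Isl1Cre/+) and from -0.13 to 0.32 (mutant versus WT). Between mutant and Isl1Cre/+, Sox17 ranged from -0.11 to 0.27 and Tek from -0.19 to 0.20. Between mutant and WT, Emcn ranged from -0.14 to 0.14, Kdr from -0.052 to 0.28 and Tie1 from -0.075 to 0.15. Sample quality weights gave 0.091 for Cldn5 and 0.012 for Tek (mutant versus Isl1Cre/+) and -0.075 for Emcn (mutant versus WT). The block gave 0.014 for Cldn5, and a minimum of 100 counts in every library, which drops Cldn5 and Sox17, 0.0089 for Tek. Without WT library 1 and Isl1Cre/+ library 1, Cldn5 was -0.22 and Tie1 -0.030. The cause of these changes was not tested.

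Over all genes, called genes numbered 102 to 845 between Isl1Cre/+ and WT (185 in the edgeR fit used for the comparisons here), 139 to 1028 between mutant and Isl1Cre/+ (221) and 31 to 408 between mutant and WT (42). The highest number was reached each time without a filter on low counts, where 33884 genes were tested in place of 13200.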
